A study of Mus musculus with 11 samples.

Results

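The genes described here are the mouse histone genes named Hist1h, Hist2h, Hist3h or Hist4h, which encode the linker histone H1 and the core histones H2A, H2B, H3 and H4. They were found by the start of their symbol in the authors' deposited gene table, where they take 70 of 37224 rows. By class there were 6 H1, 20 H2A, 19 H2B, 12 H3 and 13 H4 rows, and by genomic cluster 56 were in Hist1, 10 in Hist2, 3 in Hist3 and 1 in Hist4. A count was given for 66 of the 70. A combined count of at least 20 was reached by 58 members and one of at least 100 by 47, while 4 members (Hist1h2bq, Hist1h2br, Hist1h4m and Hist2h2aa1) were listed without a value in either pool.

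The study compared T cell acute lymphoblastic leukaemias (T-ALL) with and without Utx, a demethylase that removes a repressive methyl mark from histone H3. The knockout group (Utx-/Y) had 5 samples, 2 from bone marrow and 3 from spleen, and the wild-type group (Utx+/+ or Utx+/Y) had 6, 2 from bone marrow and 4 from spleen; 1 knockout and 2 wild-type samples were reruns. In both groups, on a C57/BL6 background, cKit-positive blood progenitors received a retrovirus with the activated form of Notch1 (Notch1-IC) and were injected into recipient mice, whose own blood cells can remain in the sampled organs. The deposited table holds 1 read count per gene and genotype, pooled by the authors, so no spread between tumours could be computed, and no test over samples was possible. The knockout genotype is that of males, while the wild-type label allows both sexes, so genotype and sex cannot be told apart. The design text speaks of sorted tumour populations without naming a gate. The pools held 106445530 counts for the knockout and 108015222 for the wild type. Kdm6a, the gene of Utx, had 1115 knockout and 6299 wild-type counts (log2 ratio -2.48, 95% interval -2.57 to -2.38).

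Core histones form the spool around which DNA is wound, and linker histone H1 binds where DNA enters and leaves it. Most of the genes in these clusters are replication-dependent: they are used in S phase, lack introns, and give mRNAs that end after a short hairpin, the histone stem-loop, in place of a poly(A) tail. The stem-loop is bound by the protein Slbp. Some of the same genes can also give longer, polyadenylated mRNAs, as in cells that have stopped dividing. The libraries here were made from poly(A)-selected RNA per the labels' protocols, while the series' design text names ribosomal depletion as another option. Such selection can lose mRNAs that have no tail. Whether the histone counts came from tailed or tailless mRNAs was not tested.

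The stem-loop is shown because its forms in H4 genes differ from those in the other classes and because the annotated transcripts either end near it or continue past it. It was searched for in the GENCODE M21 transcripts on the transcript strand, after the coding sequence, as a hairpin of 16 bases. The left arm had to open with GG and end with CT, the loop to be TTT and any base, and the right arm to open with AG and end with CC, with at least 5 of the 6 stem bases paired. A match was found in 44 of the 70 members. The 6 forms found are given as DNA letters, with the 16 bases in capitals and 5 flanking bases on each side:
Hist1h1c: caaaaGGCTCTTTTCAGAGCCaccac
Hist1h2bk: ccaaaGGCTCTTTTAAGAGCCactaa
Hist2h2ac: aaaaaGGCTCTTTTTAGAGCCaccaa
Hist1h4d: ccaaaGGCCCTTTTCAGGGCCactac
Hist1h4i: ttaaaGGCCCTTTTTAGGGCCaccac
Hist1h4b: caaaaGGTCCTTTTCAGGACCactca

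The form shown for Hist1h1c was found in 26 members, of the H1, H2A, H2B and H3 classes. The form of Hist1h2bk was found in 6 members and that of Hist2h2ac in 1. The H4 genes had forms of their own: 7 had that of Hist1h4d, 2 that of Hist1h4i and 2 that of Hist1h4b. All 33 matches outside H4 had the stem GGCTCT, and the 11 matches in H4 had GGCCCT or GGTCCT. In 22 members the annotated transcript ended 3 to 74 bases after the stem-loop, and in 22 others it continued for 151 to 4884 bases, with the poly(A) signal AATAAA in the added stretch of 13. The other 26 had no match in the annotated transcript, from which nothing follows about the RNA in these cells.

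Promoters of some genes with large counts are shown next, because the classes also differ in the motifs in front of their start. They are the 250 bases before the start in RefSeq, build GRCm38.p6, on the gene's strand, and 61 members had one. Capitals mark CCAAT, the octamer ATTTGCAT known from H2B promoters, TATAAA, and AAACACA known from H1 promoters, each searched on both strands. The window of Hist1h2ac spans the gap to its divergent neighbour Hist1h2bc.
Hist1h1c (chr13:23738557-23738806, plus strand): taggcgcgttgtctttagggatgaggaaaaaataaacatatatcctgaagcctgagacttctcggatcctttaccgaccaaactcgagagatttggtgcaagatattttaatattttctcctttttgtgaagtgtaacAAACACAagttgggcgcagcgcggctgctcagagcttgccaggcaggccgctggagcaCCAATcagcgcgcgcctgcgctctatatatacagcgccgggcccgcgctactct
Hist1h2ac (chr13:23683960-23684209, minus strand): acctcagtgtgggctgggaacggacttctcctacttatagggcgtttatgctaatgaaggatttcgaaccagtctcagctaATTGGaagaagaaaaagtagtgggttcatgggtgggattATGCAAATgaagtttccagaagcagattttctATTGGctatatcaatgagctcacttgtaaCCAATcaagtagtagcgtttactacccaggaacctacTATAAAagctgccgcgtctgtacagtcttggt
Hist3h2ba (chr11:58948661-58948910, plus strand): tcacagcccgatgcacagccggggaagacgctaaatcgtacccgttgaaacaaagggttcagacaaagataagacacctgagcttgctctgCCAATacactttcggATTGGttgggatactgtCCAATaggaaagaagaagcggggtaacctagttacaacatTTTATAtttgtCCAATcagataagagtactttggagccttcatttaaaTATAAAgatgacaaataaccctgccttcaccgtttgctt
Hist4h4 (chr6:136804432-136804681, minus strand): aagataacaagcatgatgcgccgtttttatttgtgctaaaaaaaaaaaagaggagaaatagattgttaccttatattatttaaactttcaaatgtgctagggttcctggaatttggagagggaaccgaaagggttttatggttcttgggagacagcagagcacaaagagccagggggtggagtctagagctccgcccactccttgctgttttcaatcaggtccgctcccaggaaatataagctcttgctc

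CCAAT was present in 50 of 61 member promoters (82.0%), against 34.5% of the promoters of 27025 genes. By class it was in 6 of 6 H1, 17 of 17 H2A, 16 of 16 H2B, 8 of 10 H3 and 3 of 12 H4 promoters. The octamer was in 7 of 17 H2A and 6 of 16 H2B promoters and in none of the other classes, against 1.61% of all promoters. Many H2A and H2B genes stand back to back and share the window between them. AAACACA was in 5 of 6 H1 promoters, against 6.22% of all, and TATAAA in 29 of 61 member promoters, against 3504 of all 27025. Some of these motifs share end letters, so matches to different motifs can overlap, and a match does not show that a factor binds there. The Hist4h4 window held none of the 4 motifs.

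The histone genes as a whole were about 2-fold higher in the knockout pool. Summed over all members there were 26160 knockout and 12542 wild-type counts, or 246 knockout against 116 wild-type CPM (counts scaled to the total of each pool). The log2 ratio was 1.08 (95% interval 1.05 to 1.11; intervals are exact Clopper-Pearson intervals, cover counting error only and hold no difference between tumours). Histone reads were 0.0246% of the knockout pool and 0.0116% of the wild-type pool. In bulk RNA, a change in the share of cells that use a gene and a change in RNA per cell cannot be told apart. A call of higher or lower needed a combined count of 100 or more, a difference of at least 2-fold (log2 ratio of 1, after adding 0.5 counts to each pool) and an interval without 0.

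By that rule 22 of 47 members were higher (46.8%), beside 11.2% of all 13833 genes with enough counts, and none was lower, beside 5.36%. The log2 ratio was above 0 in 44 of the 47, beside 44.8% of all genes, and the interval lay wholly above 0 in 40, beside 37.0% of all genes. The interval held 0 for the other 7 members. The median log2 ratio was 0.98 over the 58 members with at least 20 counts and -0.07 over all 17186 such genes. Members just past the 2-fold line were Hist1h2ah, Hist1h3g and Hist1h4d, at 1.00, 1.00 and 1.01, and those just short of it were Hist1h2ak, Hist2h4 and Hist1h2bp, at 0.99, 0.98 and 0.96.

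Calls were also counted under other rules, given here with the share of all genes called higher and then lower. They numbered 27 of 47 with TMM scaling (12.3% of all genes higher, 4.71% lower), 25 with the median of ratios (12.1% and 4.82%), and 22 with the upper quartile (11.2% and 5.37%). They numbered 28 with totals that leave out mitochondrial and erythroid genes (12.5% and 4.63%). A minimum of 20 counts gave 28 of 58 (13.6% and 8.7%), and one of 500 gave 13 of 19 (7.56% and 3.35%). At 1.5-fold there were 33 (18.9% and 14.7%), with a pseudocount of 5 there were 18 (10.9% and 5.13%), and with q-values of the authors' deposited table in place of the interval there were 22 (11.2% and 5.39%). No member was called lower under any of these rules. By the q-value of the authors' deposited table alone (under 0.05, with no minimum of fold or count), 49 of 66 members were higher (74.2%), beside 30.4% of all 20904 genes with a value. The same table had 1 member lower, the pseudogene Hist1h2aj, beside 37.4% of all genes; 46.7% of genes with enough counts had an interval wholly below 0.

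**Figure D1:**
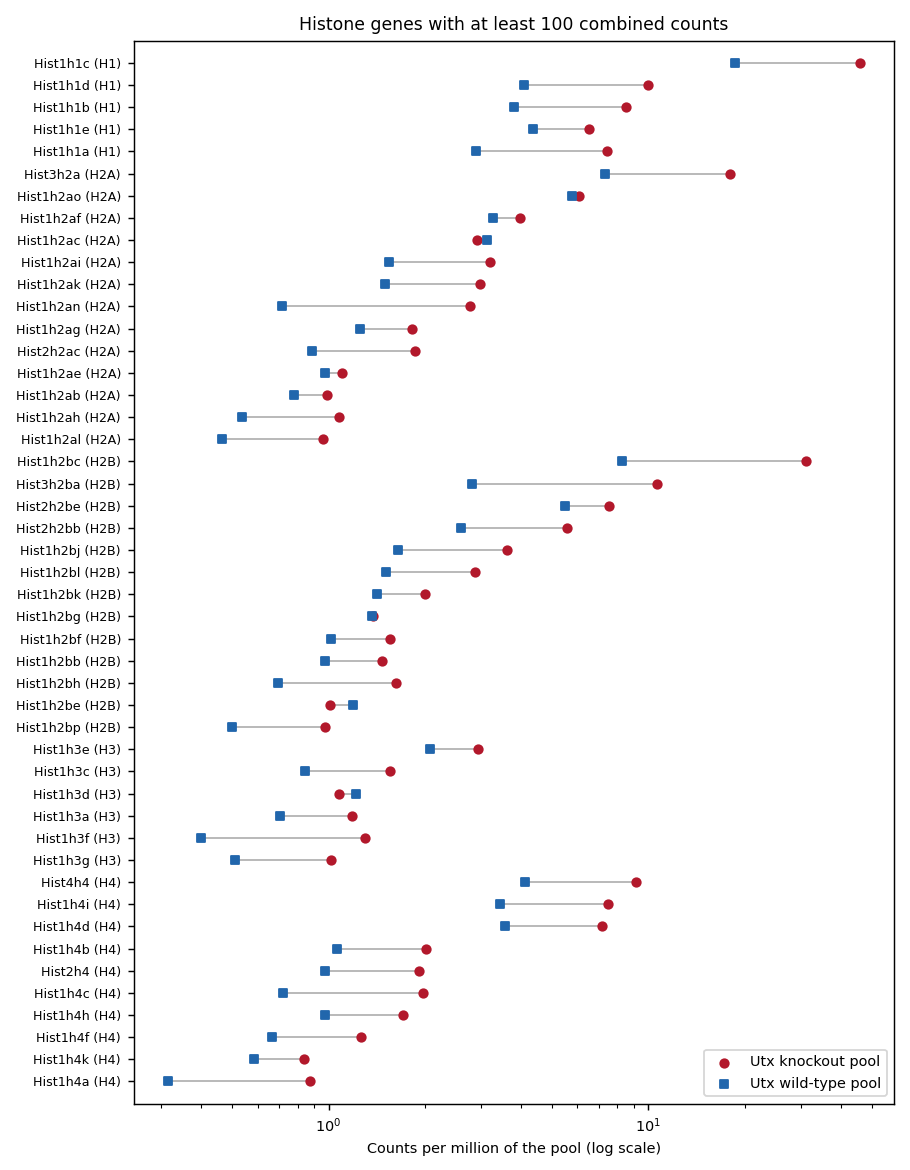
Level of each histone gene with at least 100 combined counts, in CPM on a log axis; circles are the knockout pool, squares the wild-type pool, and a grey line joins them. The knockout circle lies to the right in 44 of the 47 genes; Hist1h2ac, Hist1h2be and Hist1h3d have it to the left.

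The linker histone genes spanned the narrowest range of log2 ratios of the 5 classes, 0.58 to 1.36 with at least 100 counts. H1 sums were 8339 knockout and 3657 wild-type counts, or 78.3 knockout against 33.9 wild-type CPM (log2 ratio 1.21, 1.15 to 1.27). Of the 5 H1 genes with at least 100 counts 4 were called higher (80.0%, beside 11.2% of all genes). Hist1h1c, which encodes histone H1.2, had 4878 knockout and 2021 wild-type counts, 45.8 knockout against 18.7 wild-type CPM (log2 ratio 1.29, 1.22 to 1.37). Hist1h1d (H1.3) had 1063 knockout against 441 wild-type counts (log2 ratio 1.29, 1.13 to 1.45).
Hist1h1a (H1.1) had 792 knockout against 313 wild-type counts (log2 ratio 1.36, 1.17 to 1.55), and Hist1h1b (H1.5) had 904 knockout against 409 wild-type counts (log2 ratio 1.16, 1.00 to 1.34). These 4 intervals overlap, so the 4 genes were not separated from each other. Hist1h1e (H1.4) lay below them, with 694 knockout and 472 wild-type counts (log2 ratio 0.58, 0.41 to 0.75) and an interval that does not reach those of the other 4. Its exons overlap those of Hist1h2be in the annotation. The testis-specific linker gene Hist1h1t had 8 knockout and 1 wild-type counts.

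H2A genes varied widely, with log2 ratios from -0.10 to 1.95. Their sum was 5154 knockout and 3100 wild-type counts (log2 ratio 0.75, 0.69 to 0.82). Of the 13 with enough counts 6 were called higher (46.2%, beside 11.2% of all genes). The H2A gene with the most counts, Hist3h2a, had 1914 knockout and 790 wild-type counts, or 18.0 knockout against 7.31 wild-type CPM (log2 ratio 1.30, 1.18 to 1.42). The largest H2A ratio was that of Hist1h2an, with 294 knockout against 77 wild-type counts, at 1.95 (1.59 to 2.34). Hist1h2ai (341 knockout against 166 wild-type counts), Hist2h2ac (198 knockout against 96 wild-type counts), Hist1h2ah (115 knockout against 58 wild-type counts) and Hist1h2al (102 knockout against 50 wild-type counts) were called at log2 ratios of 1.06, 1.06, 1.00 and 1.04; Hist1h2al is annotated as a processed pseudogene.
Others hardly differed. Hist1h2ao had 644 knockout and 623 wild-type counts (log2 ratio 0.07, -0.09 to 0.23), and Hist1h2af had 423 knockout against 353 wild-type counts (log2 ratio 0.28, 0.07 to 0.49). Hist1h2ac stood at -0.10 (-0.33 to 0.13), with 311 knockout against 338 wild-type counts, and Hist1h2ae at 0.18 (-0.22 to 0.57), with 117 knockout against 105 wild-type counts. Without Hist3h2a the H2A log2 ratio was 0.51.

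H2B had the highest summed ratio, with an interval that overlaps that of H1, and a single gene carried much of it. The class sum was 7729 knockout and 3204 wild-type counts (log2 ratio 1.29, 1.23 to 1.35). Of 13 genes 5 were called higher (38.5%, beside 11.2% of all genes). Hist1h2bc had 3305 knockout and 890 wild-type counts, 31.0 knockout against 8.24 wild-type CPM (log2 ratio 1.91, 1.81 to 2.02). It made up 42.8% of H2B counts for the knockout and 27.8% for the wild type, and without it the H2B ratio was 0.96. The annotated transcript of Hist1h2bc has an intron and no stem-loop match.
Hist3h2ba, with 1127 knockout against 304 wild-type counts, reached the same log2 ratio of 1.91 (1.73 to 2.10). Hist1h2bh (174 knockout against 75 wild-type counts, 1.23), Hist1h2bj (385 knockout against 178 wild-type counts, 1.13) and Hist2h2bb (594 knockout against 280 wild-type counts, 1.10) were also called higher. The identifier given for Hist2h2bb belongs to a noncoding RNA, Gm42743, in GENCODE M21, so its value may not be that of a histone gene. At the low end, Hist2h2be had 800 knockout and 592 wild-type counts (log2 ratio 0.46, 0.30 to 0.61). Hist1h2bg stood at 0.01 (-0.33 to 0.35), on 147 knockout against 148 wild-type counts, and Hist1h2be at -0.22 (-0.61 to 0.16), on 108 knockout against 128 wild-type counts.

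H3 genes had the fewest counts of the core histones, and their summed ratio was not separated from that of H2A. There were 1242 knockout and 768 wild-type counts (log2 ratio 0.71, 0.58 to 0.85). Of 6 genes 2 were called higher (33.3%, beside 11.2% of all genes). Without the member with the most counts in each class, the summed ratio was 0.80 for H3 and 0.51 for H2A. Hist1h3f had 138 knockout against 43 wild-type counts (log2 ratio 1.69, 1.20 to 2.23), and Hist1h3g had 109 knockout against 55 wild-type counts (log2 ratio 1.00, 0.53 to 1.5). Hist1h3e, the H3 gene with the most counts, had 313 knockout and 225 wild-type counts (log2 ratio 0.50, 0.25 to 0.75).
Hist1h3c and Hist1h3a had log2 ratios of 0.88 (0.51 to 1.27) and 0.75 (0.33 to 1.18), on 166 knockout against 91 wild-type counts and 126 knockout against 76 wild-type counts. Hist1h3d had 115 knockout and 132 wild-type counts (log2 ratio -0.18, -0.55 to 0.19). The other 6 H3 genes had fewer than 100 counts.

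Of the 10 H4 genes with at least 100 counts 5 were called higher (50.0%, beside 11.2% of all genes). The interval lay above 0 in all 10, beside 37.0% of all genes. Among H4 genes with fewer counts, Hist1h4j had 38 knockout and 40 wild-type counts, and Hist1h4n had 1 knockout and 4 wild-type counts. The class sum was 3696 knockout and 1813 wild-type counts (log2 ratio 1.05, 0.97 to 1.13). Hist4h4, the lone member of its cluster, had 975 knockout against 443 wild-type counts, or 9.16 knockout against 4.1 wild-type CPM (log2 ratio 1.16, 1.00 to 1.32). Hist1h4i had 793 knockout and 370 wild-type counts (log2 ratio 1.12, 0.94 to 1.30), and Hist1h4d had 762 knockout against 385 wild-type counts (log2 ratio 1.01, 0.83 to 1.19).
The largest ratios were those of Hist1h4a (1.46, 0.89 to 2.08; 93 knockout against 34 wild-type counts) and Hist1h4c (1.45, 1.08 to 1.85; 211 knockout against 78 wild-type counts). Hist1h4k had the smallest, 0.52 (0.04 to 1.01; 89 knockout against 63 wild-type counts), and the next was Hist1h4h at 0.81 (0.46 to 1.18; 182 knockout against 105 wild-type counts). Hist1h4b had 214 knockout against 114 wild-type counts (log2 ratio 0.93, 0.60 to 1.27). Every H4 member encodes a protein that another member also encodes.

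**Figure D2:**
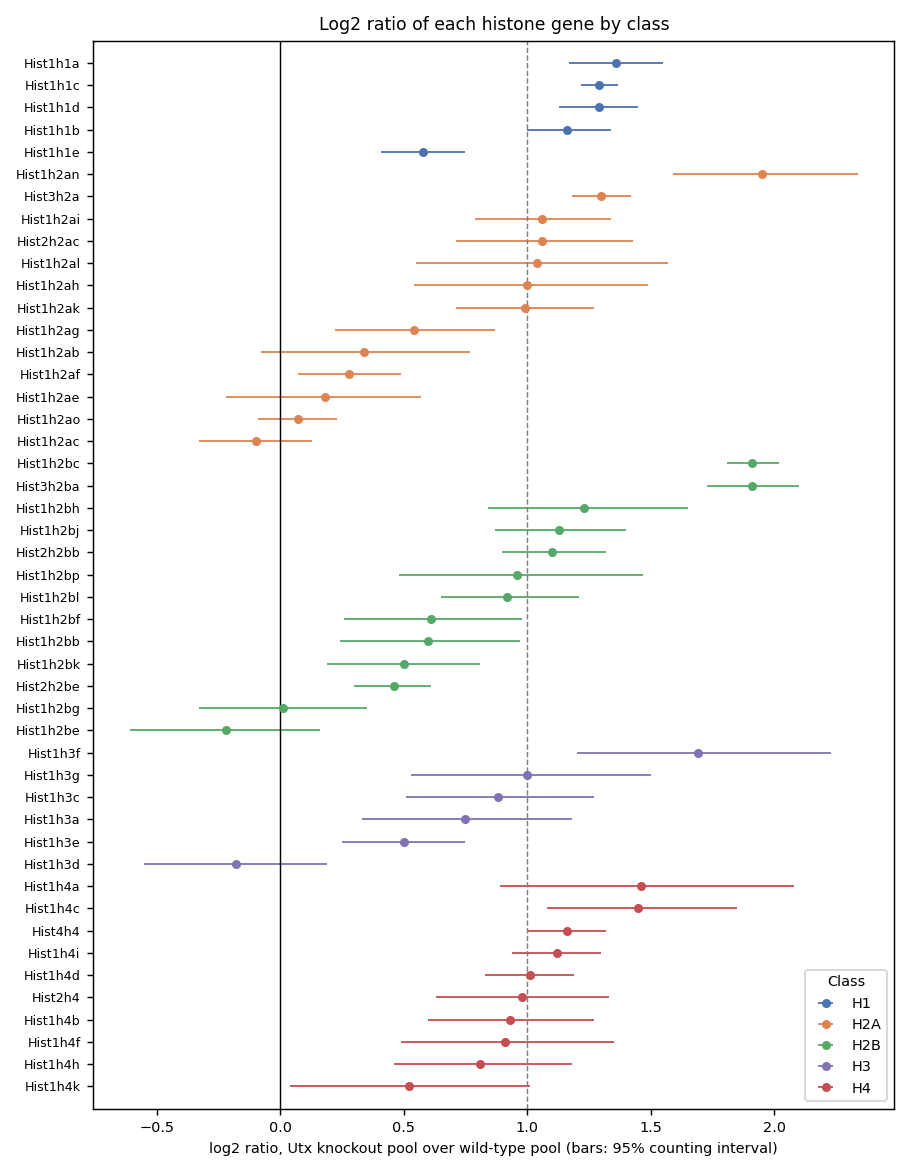
Log2 ratio of the knockout over the wild-type pool for the 47 histone genes with at least 100 combined counts, by class and sorted within it; bars are 95% counting intervals, the solid line is no difference and the dashed line 2-fold. No bar lies wholly below 0, and all H1 and H4 bars lie above it.

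Scaled also to annotated length (CPM per kilobase of GENCODE M21 exons), the knockout pool had the highest levels for Hist1h1c at 29.4, Hist1h2bc at 26.9 and Hist3h2ba at 17.2. The wild-type pool gave 12.0, 7.13 and 4.58 for these genes. Hist1h2ao followed at 12.6 for the knockout and 12.0 for the wild type, so in the wild-type pool it stood level with Hist1h1c. Hist1h1b was at 11.4 for the knockout and 5.10 for the wild type, and Hist1h4i at 10.2 for the knockout and 4.71 for the wild type. These levels rest on annotated lengths that may not be those the authors counted over.

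The clusters were all higher in sum. Hist1, the main cluster on chromosome 13, had 20154 knockout and 9834 wild-type counts (log2 ratio 1.06, 1.02 to 1.09). Hist2, on chromosome 3, had 1953 knockout against 1159 wild-type counts (log2 ratio 0.77, 0.67 to 0.88), of which Hist2h2be made up 41.0% of knockout and 51.1% of wild-type counts. Without that gene the Hist2 ratio was 1.04. The row with the most counts among the rest was Hist2h2bb (594 knockout against 280 wild-type counts). Its identifier belongs to a noncoding RNA, so this 1.04 may not be that of histone genes alone. Hist3, on chromosome 11, had the largest ratio at 1.5 (1.40 to 1.60), on 3078 knockout against 1106 wild-type counts. Its other member, the pseudogene Hist3h2bb-ps, had 37 knockout against 12 wild-type counts.
Within Hist1, 55 of the members fall into blocks more than 100000 bases apart (GRCm38 coordinates of GENCODE M21). The first block, from 21715763 to 21837530, had 3255 knockout and 1863 wild-type counts (log2 ratio 0.83, 0.74 to 0.91). The second, from 22035164 to 22043676, had 1700 knockout against 894 wild-type counts (log2 ratio 0.95, 0.83 to 1.07). The third, from 23531050 to 23764406, holds Hist1h1c and Hist1h2bc and had 15087 knockout against 7013 wild-type counts (log2 ratio 1.13, 1.09 to 1.17). The median over its members with at least 100 counts was 0.84, below the 0.97 and 1.00 of the first and second blocks. The last block, with the testis genes Hist1h2ba and Hist1h2aa, had 10 knockout and 14 wild-type counts. The processed pseudogene Hist1h2al lies apart from these blocks.

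Genes that share a promoter region did not always have like ratios. In the annotation 14 pairs of an H2A and an H2B gene stood head to head with starts 172 to 305 bases apart, and both genes had at least 100 counts in 7 pairs. The intervals overlapped in 4 of these pairs and were apart in 3. Among the 4, Hist1h2ag (0.54, 0.22 to 0.87) and Hist1h2bj (1.13, 0.87 to 1.4) met only at a rounded limit. The widest gap was between Hist1h2bc at 1.91 and Hist1h2ac at -0.10, which start 250 bases apart around the promoter printed above. The annotated Hist1h2bc transcript runs from 23684199 to 23692908 with 1156 exon bases, so it is spliced, and it has no stem-loop match. That of Hist1h2ac continues 2010 bases past its stem-loop. How this bears on the gap was not tested. Hist1h2an and Hist1h2bp were at 1.95 and 0.96, and Hist2h2ac and Hist2h2be at 1.06 and 0.46. Hist1h2ai and Hist1h2bl, at 1.06 and 0.92, and Hist1h2ae and Hist1h2bg, at 0.18 and 0.01, lay close to each other. The H2B gene had the higher ratio in 2 of the 7 pairs, and the median of H2B minus H2A was -0.17.

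**Figure D3:**
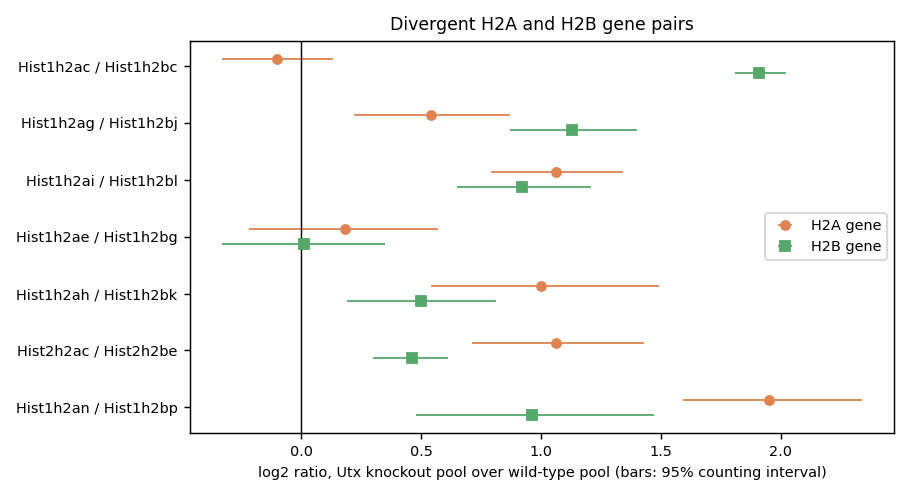
Log2 ratio of the knockout over the wild-type pool for the 7 divergent pairs of an H2A gene (circle) and an H2B gene (square) with at least 100 counts each; bars are 95% counting intervals. The widest separation is that of Hist1h2ac and Hist1h2bc, and 4 pairs overlap, of which Hist1h2ag and Hist1h2bj meet only at a rounded limit.

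Members were then set apart by how their annotated transcript ends. Those whose transcript continues well past the stem-loop had 14158 knockout and 6688 wild-type counts (log2 ratio 1.10, 1.06 to 1.15), with 10 of 18 called higher (55.6%). Those that end near the stem-loop had 3177 knockout against 2054 wild-type counts (log2 ratio 0.65, 0.57 to 0.73), with 2 of 14 called (14.3%, near the 11.2% of all genes). Those with no match had 8825 knockout against 3800 wild-type counts (log2 ratio 1.24, 1.18 to 1.29), with 10 of 15 called (66.7%). Without Hist1h2bc the summed ratio of those with no match was 0.94 (0.88 to 1.01). Without Hist1h1c that of the members that continue was 1.01 (0.96 to 1.06), and these 2 intervals overlap. Medians over members with at least 100 counts were 1.06 (continues), 0.78 (ends near) and 1.04 (no match).
The sequence that members share with other genes differs between these groups. The measure was the share of 50-base words (the read length) of a member's transcripts that also occur in another gene's transcripts. Words were matched on either strand, and genes annotated over the same stretch of DNA were included. The share therefore mixes sequence repeated elsewhere with overlapping annotation, as for Hist1h1e at 32.0%. It had a median of 23.4% where the transcript continues, 63.1% where it ends near the stem-loop and 69.5% with no match. How reads that fit several genes were assigned is not stated in the labels, so values of members with much shared sequence are uncertain.

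That share was 0% for Hist1h1a, Hist1h1b, Hist1h1t and Hist2h2be and 100% for Hist2h2aa1, Hist2h2aa2, Hist2h3b and Hist2h3c1. By class its median was lowest for H1 at 1.12% and highest for H2A at 73.2%. Members with up to 33% shared words had 19813 knockout and 8630 wild-type counts (log2 ratio 1.22, 1.18 to 1.26), with 13 of 19 called higher (68.4%). Members with 33 to 67% had a ratio of 0.88 (0.80 to 0.97), with 5 of 16 called (31.2%). Those above had 0.60 (0.52 to 0.67), with 4 of 12 called (33.3%). Beside these shares, 11.2% of all genes were called higher. The genes with the least shared sequence thus had the larger summed ratio; the part of shared reads in this was not tested. The exons of all 20 H2A members also overlap another annotated gene on one of the strands, and the labels do not say whether counting used the strand.

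**Figure D4:**
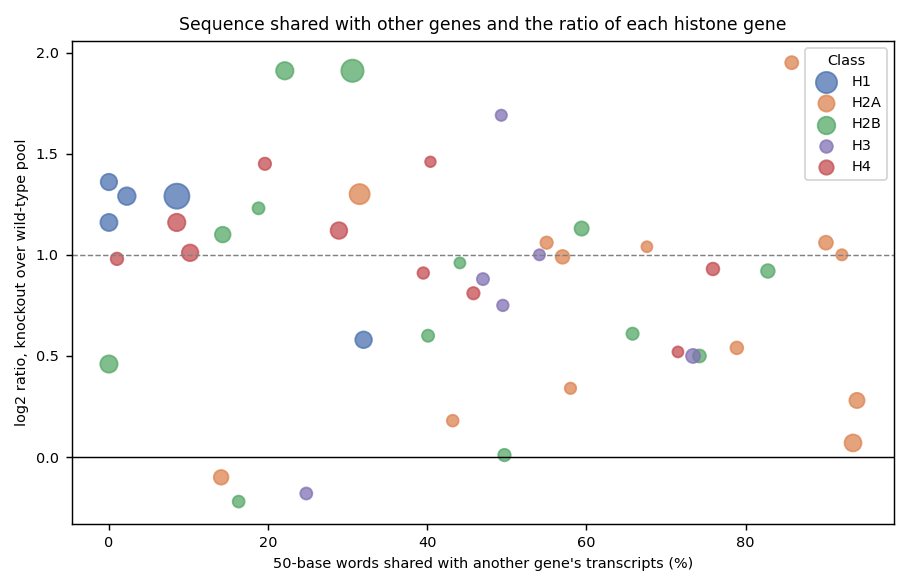
Log2 ratio of the knockout over the wild-type pool against the share of a gene's 50-base words found in other genes' transcripts, for the 47 histone genes with at least 100 counts; point area grows with the combined count and colour gives the class. Most of the genes with the most counts lie at the left, above 1 in most cases, and Hist1h2ao and Hist1h2af lie at the far right near 0.

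Genes that process histone mRNA or carry histone proteins did not differ in the same way. Of 19 genes of histone mRNA processing none was called in either direction, beside 11.2% of all genes called higher and 5.36% called lower. Their median log2 ratio was -0.21. Slbp, which binds the stem-loop, had 12305 knockout and 16121 wild-type counts (log2 ratio -0.37, -0.40 to -0.33). Npat, the activator of histone gene transcription, was at -0.26 (-0.32 to -0.20), and Coil, the coilin of Cajal bodies, at -0.48. The highest were Cstf2, a cleavage factor subunit, at 0.40 (0.35 to 0.44), and Gon4l at 0.37; Zfp473, which acts in stem-loop processing, was at -0.47 on 58 knockout against 82 wild-type counts.
Of 15 histone chaperone genes none was called (beside 11.2% of all genes called higher and 5.36% lower), with a median of -0.41. Nap1l1 was lowest at -0.54 (-0.56 to -0.51), with Chaf1a, a subunit of the replication-coupled chaperone, at -0.53 (-0.58 to -0.48). The importin gene Ipo4 was at 0.20 and Nap1l4 at 0.12.

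Most S phase genes lay slightly lower in the knockout pool. None of 30 DNA replication genes was called (beside 11.2% of all genes called higher and 5.36% lower), and their median was -0.26. Orc1 at 0.03 and Rrm2 at 0.01 were the 2 of the 30 with a ratio above 0, beside 44.8% of all genes. E2f1 was at -0.72 (-0.79 to -0.64) and Ccne2 at -0.61. Pcna, the sliding clamp, had 16528 knockout and 19940 wild-type counts (log2 ratio -0.25, -0.28 to -0.22). None of 16 mitosis genes was called (beside the same 11.2% and 5.36% of all genes), with a median of -0.24. These genes ran from Bub1b at -0.82 and Aurkb at -0.58 to Aurka at -0.05, Ccnb1 at -0.03 and Plk1 at 0.27.

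Histone variant genes, most of which are used beyond S phase and give polyadenylated mRNAs, were not higher with the clustered genes. Of 11 such genes none was called higher (beside 11.2% of all genes) and 3 were lower (beside 5.36%), with a median of -0.34. H1fx, a linker variant, had 118 knockout and 883 wild-type counts (log2 ratio -2.88, -3.17 to -2.60). H2afy2, a macroH2A gene, was at -1.66 (-2.29 to -1.10), on 33 knockout against 107 wild-type counts. H2afv, which encodes a form of H2A.Z, was at -1.08 (-1.12 to -1.04), on 7425 knockout against 15914 wild-type counts.
The largest ratio was that of H1f0, the linker histone of resting cells, with 11102 knockout and 7983 wild-type counts, 0.50 (0.46 to 0.54). H3f3a, an H3.3 gene, was at 0.00 (-0.02 to 0.02). In sum the variants had 189477 knockout against 234421 wild-type counts, so they gave more counts than all clustered members together in both pools.

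Noncoding RNAs that lack a poly(A) tail had a summed ratio near 0. The symbol search covered 114 such RNAs: small nucleolar RNAs, Cajal body RNAs and other noncoding RNAs. Of these, 8 had at least 100 counts, all small nucleolar or Cajal body RNAs. None was called (beside 11.2% of all genes called higher and 5.36% lower), with a median of 0.01. Scarna17 was highest at 0.88 (0.49 to 1.29), on 153 knockout against 84 wild-type counts, followed by Snord22 at 0.48, and Snora17 and Scarna2 were lowest at -0.32 and -0.31. Summed, these RNAs had 2215 knockout and 2324 wild-type counts (log2 ratio -0.05, -0.13 to 0.04). They are not mRNAs, so they cannot show how much histone mRNA without a tail was carried into the libraries.

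Many markers of other blood cells were also higher in the knockout pool. Granulocyte and monocyte markers had 10 of 18 called higher (beside 11.2% of all genes) and none lower (beside 5.36%). Their median was 1.26, from Ngp at -0.09 and Lcn2 at 0.09 to Cd14 at 2.18 and Marco at 2.43. The other called genes were C1qa (1.67), C1qb (1.59), C1qc (1.79), Csf1r (1.46), Fcgr3 (1.45), Itgam (1.79), Lyz2 (1.59) and Mpo (1.07). The 8 not called were granulocyte genes: Ngp, Lcn2, S100a8 (0.29), Camp (0.37), Elane (0.47), S100a9 (0.49), Ltf (0.61) and Prtn3 (0.66). Some of the called genes are also used in granulocytes, and the list was not split by cell type. The sum over all 18 markers was 297374 knockout and 233937 wild-type counts, a log2 ratio of 0.37. That is below the median because the markers with the most counts had lower ratios.
Of 13 erythroid markers 4 were called higher (beside 11.2% of all genes), with a median of 0.71. The 4 were the globin genes Hba-a1 (1.27) and Hba-a2 (1.11), the haem enzyme gene Alas2 (1.33) and Epb4.2 (1.27). None of the 13 was called lower (beside 5.36%), and Epor had the lowest ratio at 0.14. Their sum was 2926074 knockout against 1500720 wild-type counts, a log2 ratio of 0.98. T cell markers, which the labelled cell type calls for, were all present, with a median of -0.28 over 14 genes. None was called higher (beside 11.2% of all genes) and 1, Thy1 at -1.06, was called lower (beside 5.36%). Ptcra was at -0.56, and Cd8b1 (0.75) and Trat1 (0.79) were highest. B cell markers summed to 1165 knockout and 1799 wild-type counts. Of 7 with at least 100 counts, none was called higher (beside 11.2% of all genes). Spib (-3.01) and Pax5 (-2.04) were called lower (beside 5.36%), with Cd79b at 0.98 and Blnk at 0.01. Every granulocyte, erythroid and T cell marker with a row had counts in both pools. The part of these cells in the histone counts was not tested.

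**Figure D5:**
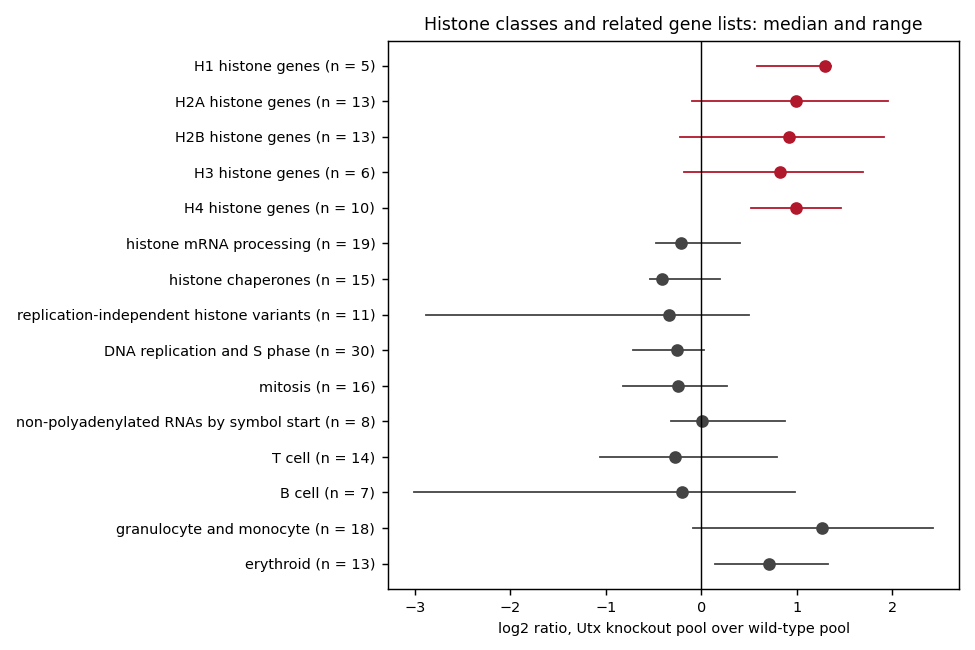
Median (circle) and range (line) of the log2 ratio of the knockout over the wild-type pool, for genes with at least 100 combined counts, in each histone class (red) and in the other gene lists (grey); n is the number of such genes. All 5 histone medians lie between 0.82 and 1.29, beside 0.71 for the erythroid list and 1.26 for the granulocyte and monocyte list, while the other lists lie at 0.01 or below.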

How the data were processed

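RNA-seq of Notch1-IC leukaemias was used: reads of 50 bases from strand-marked libraries, per the labels' protocols. The submitters' processing notes name CASAVA, TopHat and the mm9 build. The labels do not state the counting tool, its annotation or its use of strand. The authors deposited 1 table with whole read counts, 1 pooled column per genotype per the file headers; the first was taken as the knockout from the order in the table's title, and the level of Kdm6a was checked. Rows with no value (13843) were taken as 0 counts. Columns of per-sample values numbered 0, so no model over samples was run. The table also holds the authors' deposited log2 fold changes, a z score that was not used, and p-values and q-values from their DEGseq test, per the file headers and the series' design text.

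Log2 ratios, CPM and intervals were computed with Python 3.11.15 and scipy 1.17.1. Depth was the column total. A count of 0 allows up to 3 counts, or 0.0282 CPM in the knockout pool and 0.0278 CPM in the wild-type pool. The median half-width of the interval was 0.54 on the log2 scale at 100 to 200 combined counts. Reads are not independent molecules, so intervals can be too narrow. The code for calls and intervals was tested on simulated counts with counting error only. That test cannot show how the intervals do where tumours differ. The members were matched to GENCODE M21 (GRCm38), 63 by identifier and 7 by symbol; no coordinate comes from mm9. Other scalings were TMM (edgeR 4.0.16), median of ratios, upper quartile and a total without mitochondrial and erythroid genes.

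The members and lists were chosen with earlier results of these data known. In each class, values are given for the called genes, the 4 with the most counts and the 2 highest and lowest ratios; those named beyond this rule were chosen after their values were seen.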

Additional observations from a re-analysis of the deposited data

How the results depend on the processing

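No paired analysis was possible because the deposited counts are pooled over replicates. Scaling shifts every log2 ratio by the same amount, at most 0.093, and no member with at least 100 counts changed sign. In the order all members, H1, H2A, H2B, H4 and Hist1, the summed log2 ratios were 1.16, 1.29, 0.83, 1.37, 1.13 and 1.14 with TMM. They were 1.15, 1.28, 0.82, 1.36, 1.12 and 1.12 with the median of ratios, and 1.17, 1.30, 0.85, 1.38, 1.14 and 1.15 without mitochondrial and erythroid genes in the total. Leaving out the member with the most counts gave 1.04 for all members, 1.10 for H1, 0.51 for H2A, 0.96 for H2B, 0.99 for Hist1, 1.04 for Hist2 and 1.90 for Hist3. Leaving out both Hist1h1c and Hist1h2bc, chosen after seeing the data, gave 0.92 for all members. Without members that encode the same protein as another member, the ratio was 1.14 for all, 1.03 for H2A, 1.08 for H2B and 1.11 for Hist1; no H3 or H4 member remained, so those classes and Hist4 gave no value. Upper quartile scaling moved none of these sums beyond its interval.

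With a minimum of 500 counts, where fewer genes are tested, 13 of 19 members were called higher. The pseudocount of 5 ended the calls of Hist1h2ah, Hist1h2al, Hist1h3g and Hist1h4d. Pooling leaves the spread between tumours unknown, so every interval here covers counting error only, and how much each tumour gave to a pool is not known here.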

Other observations

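Other genes in the same stretch of chromosome 13 were mixed. Between the first and last of the Hist1 blocks, 7 other genes had at least 100 counts. Hfe, an iron regulator, was higher with 452 knockout and 207 wild-type counts (log2 ratio 1.15, 0.91 to 1.39). The zinc finger gene Zfp322a was higher with 2063 knockout against 976 wild-type counts (log2 ratio 1.10, 0.99 to 1.21). Abt1 lay at -0.65 (-0.72 to -0.57), on 2428 knockout against 3860 wild-type counts, and Btn1a1, a butyrophilin, at -0.63 (-0.88 to -0.38). Zfp184 was at 0.06 (-0.22 to 0.35). Their median was -0.42, against 0.92 for the 40 Hist1 members with at least 100 counts. Those 40 include the pseudogene Hist1h2al, which lies outside this stretch.

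Some members below 100 counts had the largest ratios. These were singled out after their values were seen. Hist1h2bm had 87 knockout and 9 wild-type counts (log2 ratio 3.22, 2.30 to 4.47). Its divergent partner Hist1h2aj, annotated as a pseudogene, had 2 knockout against 15 wild-type counts. Hist1h2bn had 16 knockout and 0 wild-type counts, with a lower interval limit of 1.97 on the log2 scale. Hist1h2ad had 17 knockout against 1 wild-type counts (log2 ratio 3.57, 1.43 to 9.49). The 11 members with 20 to 99 counts ranged from -0.05 to 3.22 and 10 were above 0, while the 8 with fewer counts were split, 4 above and 4 below.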
